A study of Mus musculus with 8 samples.

Results

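PLZF, encoded by Zbtb16, and 8 related transcription factors were followed through early innate lymphoid development in mouse marrow. The 9 genes were taken by symbol as a named set: Zbtb16, Zbtb7a, Zbtb7b, Zbtb32, Zbtb1, Zbtb17, Zbtb20, Bcl6 and Bach2, out of 22878 gene symbols in the deposited tables. All 9 were found and all 9 passed the filter on low counts. Each gene was represented by its RefSeq transcript with the largest mean read count, which left a choice only for Zbtb20. The first 8 genes encode a BTB domain followed by zinc fingers. BACH2 joins a BTB domain to a basic leucine zipper instead, so the set is described here as BTB factors.

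The BTB domain lets these proteins pair with each other and recruit corepressor complexes that hold histone deacetylases, while the fingers or the zipper read DNA. PLZF is known in mice for marking a precursor of innate lymphoid cells (ILCs) that does not produce lymphoid tissue inducers (LTi cells), and for directing natural killer T (NKT) cells to their innate-like state. ILCs are lymphocytes without rearranged antigen receptors.

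All libraries came from the marrow of C57BL/6 mice, 2 per group. The labels name no mutant allele or treatment and give no age. ChILP, the common helper-like innate lymphoid progenitor, was sorted as lineage-negative, CD127+, Flt3-, integrin α4β7+, ST2- and Kit+. CLP, the common lymphoid progenitor from which ChILP descends, was sorted as lineage-negative, CD127+, Flt3+, α4β7-, Sca-1+ and Kit+. PD-1+ cells, named in the labels as progenitors of ILCs other than LTi, had the ChILP phenotype with PD-1 and without CCR6. CCR6+ cells, named as LTi progenitors, had that phenotype with CCR6 and without PD-1. ChILP and CLP were enriched by lineage depletion, PD-1+ and CCR6+ cells by magnetic capture of α4β7-bearing cells, so group and enrichment route cannot be told apart between these pairs and levels across them are given side by side with no test.

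Each library held 7685188 to 13997897 gene-assigned reads. Transcripts of mature marrow cells were abundant in the captured libraries. The summed level of 8 erythroid markers was 29039.1 to 42035.2 RPKM (reads scaled by transcript length and library total) in PD-1+ and CCR6+ libraries and 2651.0 to 8566.5 RPKM in ChILP and CLP libraries. Of all pairs of libraries, PD-1+ replicate 2 and CCR6+ replicate 2 differed least, with a chi-square per gene of 18.3, against 79.7 between the PD-1+ libraries and 40.7 between the CCR6+ libraries. Ccr6 (NM_001190333), the gene used to gate PD-1+ cells negatively, had 0 RPKM in PD-1+ replicate 1 and 8.11 RPKM in PD-1+ replicate 2, against 84.2 and 23.6 RPKM in CCR6+ cells. Pdcd1, which encodes the other gate protein, had 180.6 and 36.3 RPKM in PD-1+ cells against 0 and 1.1 RPKM in CCR6+ cells, and Flt3 had 10.3 and 5.1 RPKM in ChILP against 92.1 and 157.0 RPKM in CLP. Separate mice are not stated for a group's libraries, and the p-values below reflect only library-to-library spread, which may be technical. In such bulk RNA, fewer cells of a type and less RNA per cell cannot be told apart.

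Among the 8 members with reads in every library, Zbtb16 had the widest fitted difference in both comparisons. Its transcript (NM_001033324) stood at 14.0 and 31.3 RPKM in ChILP, against 2.28 and 0.855 RPKM in CLP. It stood at 46.1 and 11.8 RPKM in PD-1+ cells, against 0.732 and 1.23 RPKM in CCR6+ cells. Both ChILP libraries and both PD-1+ libraries lay above every CLP and CCR6+ library, and the low groups overlapped each other. In reads, Zbtb16 had 1306 and 2473 in ChILP against 125 and 64 in CLP, and 3430 and 981 in PD-1+ cells against 40 and 92 in CCR6+ cells, so none of these levels rests on a handful of reads. The order of the group means was PD-1+ (29.0 ± 24.3 RPKM, SD, n = 2), ChILP (22.7 ± 12.3), CLP (1.57 ± 1.01) and CCR6+ (0.983 ± 0.355). The libraries of PD-1+ and ChILP overlapped, as did those of CLP and CCR6+, and there was a gap only between ChILP and CLP.

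**Figure D1:**
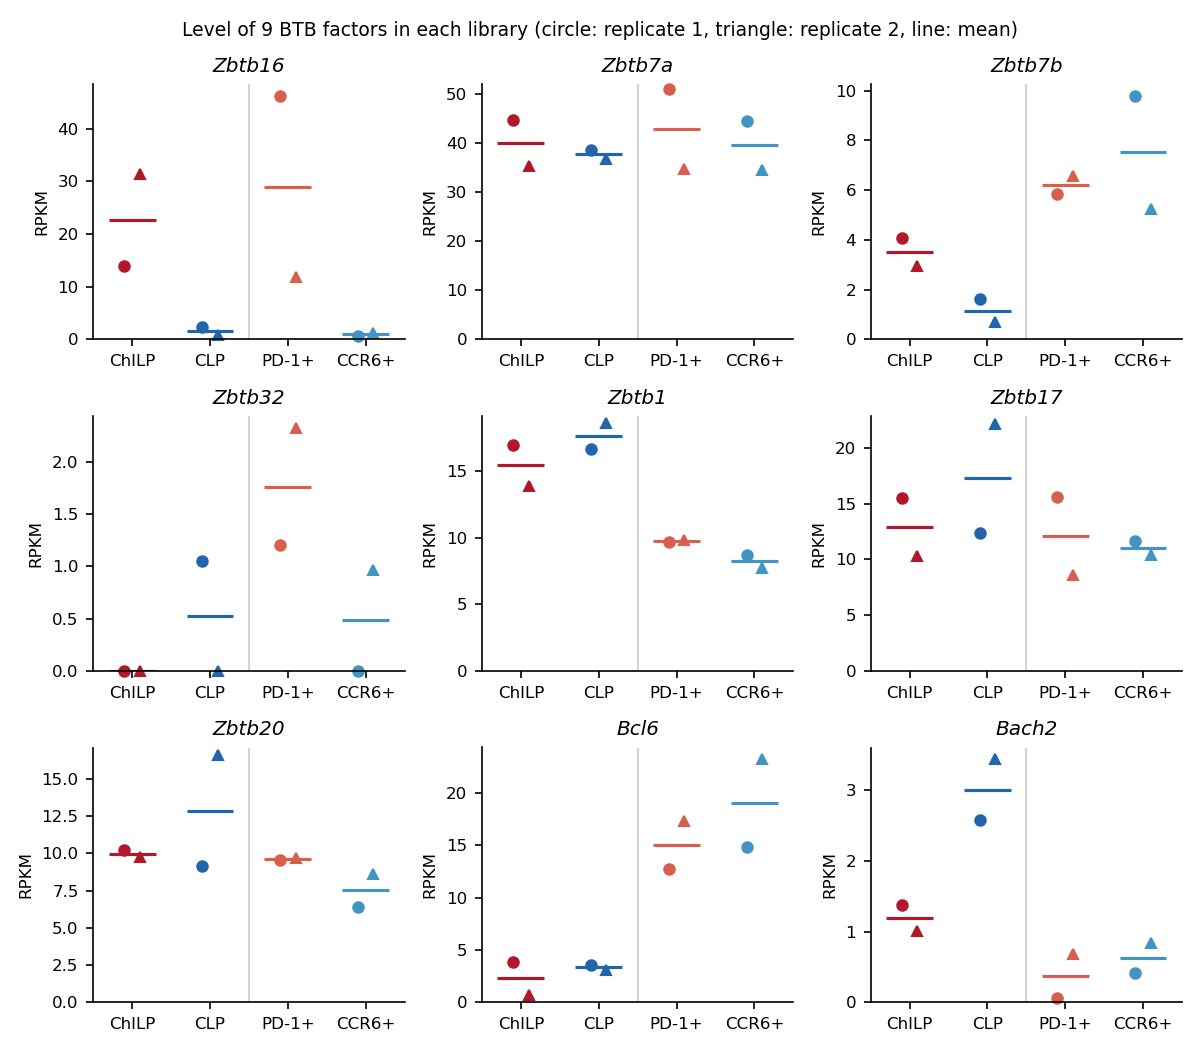
RPKM of the 9 BTB factors (vertical axes, 1 panel per gene) in ChILP, CLP, PD-1+ and CCR6+ libraries, with circles for replicate 1, triangles for replicate 2 and a line at the mean of 2 libraries. Zbtb16 is at 11.8 RPKM or more in ChILP and PD-1+ libraries and at 2.28 RPKM or less in the others, while Zbtb7a lies between 34.6 and 51.1 RPKM everywhere; the grey line parts the routes of enrichment.

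Tested with edgeR's quasi-likelihood test over all genes, Zbtb16 did not pass an adjusted p of 0.05 in either comparison. In ChILP against CLP its log2 fold change was 3.89 (SE 0.78), a fitted 14.9-fold difference, with an unadjusted p of 0.00111 and an adjusted p of 0.166. In PD-1+ against CCR6+ cells it was 4.77 (SE 0.82), a fitted 27.2-fold difference, with an unadjusted p of 0.000404 and an adjusted p of 0.359. By unadjusted p Zbtb16 ranked 91st of 13619 genes in the first comparison and 12th in the second. edgeR called 0.0220% of genes in ChILP against CLP, 3 in all, and 0% in PD-1+ against CCR6+, where 801 had an unadjusted p under 0.05, so the background of calls was nearly empty. DESeq2's Wald test called 263 and 131 genes. No member was among edgeR's calls, while the Wald test called Zbtb16 in both (adjusted p = 2.25e-06 and 6.93e-09). Leaving out 1 library in turn gave log2 fold changes of 3.19 to 4.85 for ChILP against CLP and 3.56 to 5.41 for PD-1+ against CCR6+. The edgeR test passed in PD-1+ against CCR6+ only without PD-1+ replicate 2, at an adjusted p of 0.0453, with a lone PD-1+ library assumed to vary like the other groups.

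**Figure D2:**
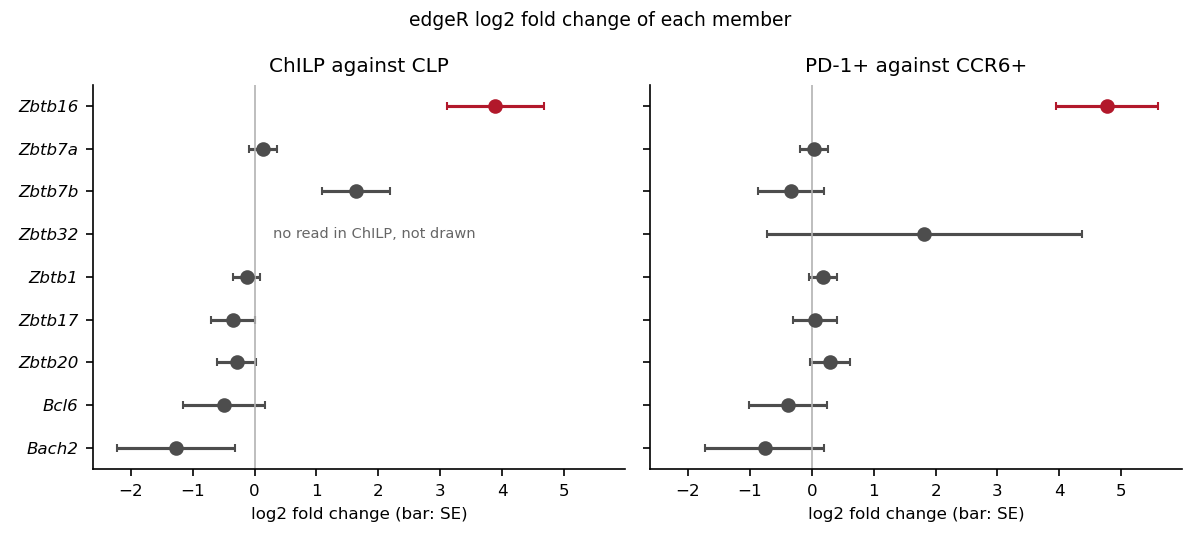
Fitted log2 fold change of each member (horizontal axis; bars are SE from edgeR) for ChILP against CLP on the left and PD-1+ against CCR6+ on the right. Zbtb16 lies at 3.89 and 4.77, Zbtb7b at 1.64 in the first comparison, and Zbtb7a, Zbtb1, Zbtb17 and Zbtb20 lie within 0.35 of 0 in both.

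Read against another member of the same library, which needs no scaling between libraries, the pattern had the same shape. Zbtb16 per Zbtb7a, as a ratio of RPKM, was 0.314 and 0.884 in ChILP, against 0.0591 and 0.0233 in CLP. The ratio was 0.904 and 0.34 in PD-1+ cells, against 0.0165 and 0.0357 in CCR6+ cells. The higher and lower libraries again did not overlap in either comparison. Among 51 BTB genes (the 9 members and 42 others), Zbtb16 took 4.42% and 10.2% of the summed RPKM in ChILP, against 0.792% and 0.255% in CLP. It took 13.0% and 4.98% in PD-1+ cells, against 0.325% and 0.579% in CCR6+ cells. By level it was 8th and 2nd of the 51 in the ChILP libraries against 30th and 37th in CLP, and 2nd and 5th in PD-1+ against 37th and 31st in CCR6+ cells. Zbtb7a spanned only 34.6 to 51.1 RPKM, so its ratio restates the Zbtb16 levels. The ratio, share and rank are therefore not separate evidence.

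**Figure D3:**
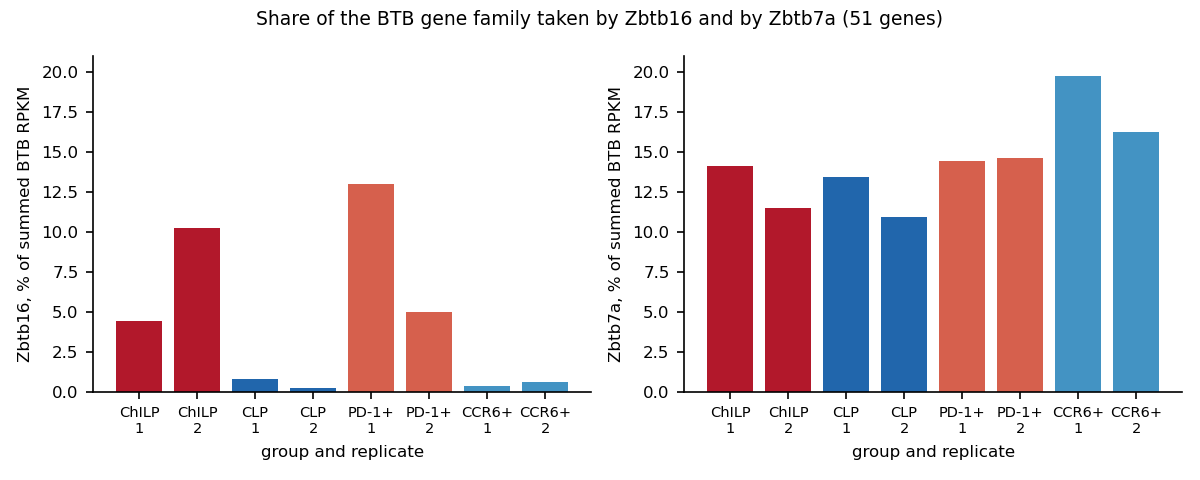
Percent of the summed RPKM of 51 BTB genes taken by Zbtb16 (left) and by Zbtb7a (right) in each library (horizontal axis, group and replicate). Zbtb16 takes 4.42% to 13.0% in ChILP and PD-1+ libraries and 0.255% to 0.792% in CLP and CCR6+ libraries, while Zbtb7a takes 10.9% to 19.7% throughout.

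Other cells of the marrow also carry PLZF, so their markers are given beside it. The sum of Cd3d, Cd3e and Cd3g, which define T and NKT cells, was 3.17 and 2.47 RPKM in ChILP, against 1.34 and 1.08 in CLP, and 20.3 and 30.3 in PD-1+ cells, against 20.9 and 37.1 in CCR6+ cells. The PD-1+ and CCR6+ libraries overlapped in this sum, and both ChILP libraries lay above both CLP libraries. The whole list of 9 T and NKT cell markers summed to 36.4 to 55.1 RPKM in ChILP, 25.9 to 37.0 in CLP, 70.4 to 115.3 in the PD-1+ libraries and 61.5 to 64.7 in the CCR6+ libraries, with no marker at 0 in both libraries of a group. Myeloid progenitor markers (5 genes) summed to 8286.3 to 9719.4 RPKM in ChILP against 6880.1 to 6922.4 in CLP, and to 733.9 to 1438.7 in PD-1+ against 1108.8 to 1733.8 in CCR6+ cells, none at 0. Mature NK cell markers (6 genes) summed to 10.4 and 10.7 RPKM in ChILP, where Klra8 and Prf1 had no read, against 8.14 and 5.4 in CLP, and to 49.7 and 30.5 in PD-1+ against 32.2 and 24.0 in CCR6+ cells. Megakaryocyte markers (5 genes) summed to 1073.7 and 505.6 RPKM in ChILP against 500.3 and 359.5 in CLP, and to 198.6 and 115.9 in PD-1+ against 155.2 and 303.4 in CCR6+ cells. The myeloid progenitor, NK and megakaryocyte sums were thus higher in ChILP than in CLP without overlap, while the whole T and NKT sums overlapped. In PD-1+ against CCR6+ cells the whole T and NKT sum was higher without overlap. Trat1, a gene of that list, is among the 6 genes most like Zbtb16 given below. Without Trat1 the sum was 14.6 and 19.9 RPKM in ChILP against 24.4 and 35.6 in CLP. It was 57.9 and 58.2 in PD-1+ against 61.5 and 62.8 in CCR6+ cells, so lower without overlap in both comparisons. That sum still holds Cd4, which LTi cells also carry, at 6.82 and 12.7 RPKM in PD-1+ against 26.2 and 13.9 in CCR6+ cells. The part of these 4 kinds of cells in the Zbtb16 levels was not tested.

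Of 7931 other genes with a mean of at least 5 RPKM, the 6 whose log2(RPKM + 1) followed Zbtb16 most closely over the 8 libraries were Rxrg (Pearson r = 0.988), Pdcd1 (0.984), Trat1 (0.981), Bcas1 (0.98), Lrrc52 (0.977) and Stim1 (0.972). These correlations describe 8 libraries that share 4 groups, depth and admixture. Leaving out any 1 library kept each r at 0.962 or more. The 6 genes were picked by r over these same libraries, so this is not a separate check. Rxrg (NM_009107) encodes a retinoid X receptor. Its level was 27.6 and 43.9 RPKM in ChILP against 0.219 and 0.0641 in CLP, and 98.1 and 13.4 in PD-1+ against 0.0439 and 0 in CCR6+ cells. Pdcd1 (NM_008798) encodes PD-1, whose surface protein was used to sort the PD-1+ and CCR6+ groups. Stim1 (NM_009287), a calcium sensor of the endoplasmic reticulum, kept the order but spanned little, at 24.9 and 29.0 RPKM in ChILP against 19.4 and 18.5 in CLP and at 34.2 and 28.5 in PD-1+ against 18.7 and 19.5 in CCR6+ cells. Gata3, which drives ILC development, had r = 0.914 and was 20th. Tox had r = 0.918 (19th), Rora 0.894 (32nd), Tcf7 0.828 (76th) and Id2 0.706 (191st). Within the PD-1+ group Zbtb16 was 3.91 times as high in replicate 1 as in replicate 2, and 11 of 12 ILC precursor factors were also higher in replicate 1, with a median ratio of 4.18. In ChILP, where Zbtb16 was lower in replicate 1, 0 of the 12 were higher there (median ratio 0.58). Most of the 12 went against Zbtb16 in the other groups. In replicate 1, 5 were higher in CLP (median ratio 0.735) and 9 in CCR6+ cells (1.4). The share of all genes higher in replicate 1 of each group was not taken, so these counts have no background beside them. The ratio of Zbtb16 to Pdcd1 was 0.197 and 0.337 in ChILP against 2.77 and 2.68 in CLP. It was 0.255 and 0.325 for PD-1+ cells, against 1.12 in CCR6+ replicate 2, with no ratio for CCR6+ replicate 1, where Pdcd1 had no read.

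**Figure D4:**
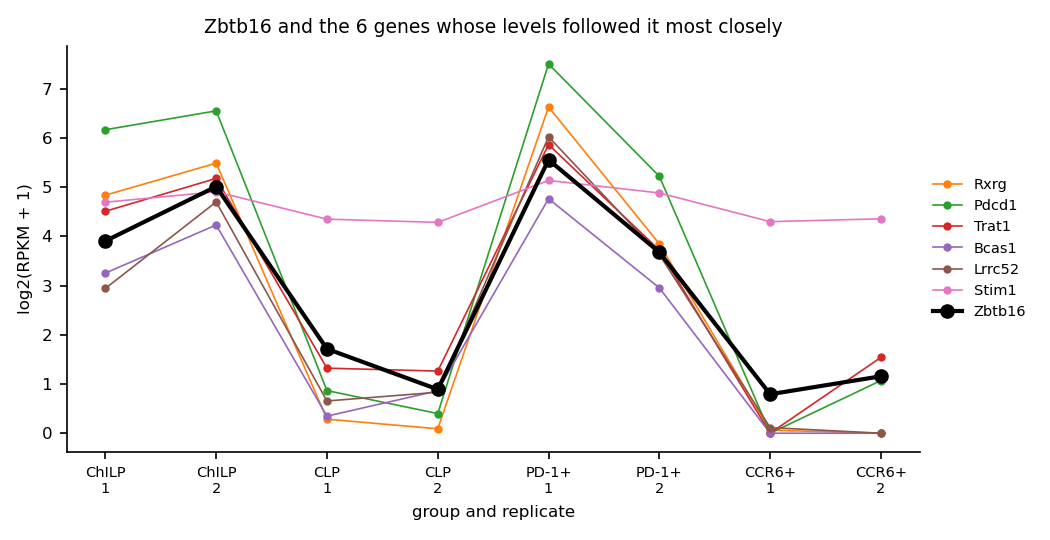
Level of Zbtb16 (black) and of the 6 genes with the highest correlation to it, as log2(RPKM + 1) on the vertical axis, in the 8 libraries by group and replicate. All 7 genes are higher in the ChILP and PD-1+ libraries than in the CLP and CCR6+ libraries, where 6 of the 7 are at 2.28 RPKM or less and Stim1 is at 18.5 to 19.5 RPKM.

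The paralogues Zbtb7a and Zbtb7b were at different levels. Zbtb7a (NM_010731) encodes LRF, which restrains Notch signalling in lymphoid progenitors, and was the highest of the 51 BTB genes in each of the 8 libraries. It stood at 44.6 and 35.4 RPKM in ChILP against 38.6 and 36.8 in CLP, and at 51.1 and 34.7 in PD-1+ against 44.4 and 34.6 in CCR6+ cells, with all groups overlapping their neighbours. Its log2 fold changes were 0.14 (SE 0.23) and 0.04 (SE 0.23) in the ChILP and the PD-1+ comparison. Zbtb7b (NM_009565) encodes ThPOK, the factor that commits thymocytes to the CD4 lineage. It stood at 4.08 and 2.95 RPKM in ChILP against 1.62 and 0.685 in CLP, without overlap, and at 5.84 and 6.57 in PD-1+ against 9.79 and 5.24 in CCR6+ cells, with overlap. The ChILP difference did not pass the test (log2 fold change 1.64, SE 0.55, unadjusted p = 0.0182, adjusted p = 0.66 by edgeR). Leaving out CLP replicate 1 gave 2.48, and leaving out CLP replicate 2 gave 1.10. Zbtb7b was higher in every captured library than in every depleted library. The sum of Cd3d, Cd3e and Cd3g was so too, at 20.3 RPKM or more against 3.17 or less. The part of T cells in the Zbtb7b level was not tested.

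Zbtb32 (NM_021397) encodes a PLZF-like repressor of activated lymphocytes that binds GATA3. It was barely detected, with 0 and 0 reads in ChILP against 20 and 0 in CLP, and 31 and 67 reads in PD-1+ against 0 and 25 in CCR6+ cells. No read in ChILP allows up to 0.0502 RPKM, at 3 counts over the group. The level pooled over both CLP libraries was 8.87 times that floor. All CLP reads came from 1 library and CLP replicate 2 had none, so no least fold between the groups follows. The PD-1+ libraries (1.2 and 2.32 RPKM) lay above both CCR6+ libraries (0 and 0.966 RPKM), with a log2 fold change of 1.82 (SE 2.55) and an adjusted p of 0.946 by edgeR.

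Zbtb1, Zbtb17 and Zbtb20 were detected in every library at moderate levels. Zbtb1 (NM_178744), a factor that lymphoid progenitors need to make T cells, stood at 17.0 and 13.9 RPKM in ChILP against 16.7 and 18.6 in CLP, and at 9.65 and 9.8 in PD-1+ against 8.73 and 7.73 in CCR6+ cells. The PD-1+ libraries lay just above the CCR6+ libraries, with a log2 fold change of 0.18 (SE 0.23). Zbtb1 was lower in every captured library than in every depleted library. Zbtb17 (NM_009541), which encodes the MYC partner MIZ-1 and is needed for interleukin-7 signalling in lymphoid progenitors, stood at 15.5 and 10.3 RPKM in ChILP against 12.4 and 22.2 in CLP, and at 15.6 and 8.61 in PD-1+ against 11.7 and 10.4 in CCR6+ cells. The groups overlapped in both comparisons. Zbtb20 (NM_019778), a factor of plasma cells and of the brain and liver, stood at 10.2 and 9.76 RPKM in ChILP against 9.14 and 16.6 in CLP, and at 9.55 and 9.66 in PD-1+ against 6.43 and 8.65 in CCR6+ cells. Its other deposited transcript (NM_181058) had nearly the same reads, 572 against 586 in ChILP replicate 1, so the isoforms cannot be told apart. The lowest adjusted p of these 3 genes was 0.923 (edgeR).

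Across the 9 members, 2 were higher and 1 lower in ChILP than in CLP without overlap between libraries, where 17.0% of all tested genes were higher and 18.6% lower in this way. In PD-1+ against CCR6+ cells 4 were higher and 0 lower, where 19.0% and 14.2% of all genes were. At an unadjusted p under 0.05 there were 2 higher and 0 lower members in the first comparison, beside 2.79% and 3.03% of all genes, and 1 higher and 0 lower in the second, beside 4.08% and 1.81%. The members' median log2 fold change was -0.295 and 0.0515, and that of all genes 0.0517 and 0.00578. The first median includes Zbtb32, which is the lowest member there both as fitted and with ChILP set at its floor of 3 counts.

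Bcl6 and Bach2, which share a place in B cell biology, were arranged in other ways than Zbtb16. Bcl6 (NM_009744), the repressor of germinal centre B cells and follicular helper T cells, stood at 3.87 and 0.73 RPKM in ChILP against 3.61 and 3.12 in CLP, and at 12.7 and 17.3 in PD-1+ against 14.8 and 23.2 in CCR6+ cells. Every captured library lay above every depleted library, and the groups overlapped within each comparison (log2 fold changes -0.49, SE 0.66, and -0.39, SE 0.63). Without ChILP replicate 2 the first of these was 0.25, and without ChILP replicate 1 it was -2.15. The summed level of 9 mature neutrophil and monocyte markers, none at 0, was also higher in every captured than in every depleted library. It was 6345.3 and 1412.0 RPKM in ChILP, 4908.3 and 1149.5 in CLP, 15687.7 and 31645.9 in PD-1+ cells and 21164.8 and 34037.2 in the CCR6+ libraries, and the 4 captured libraries had the same order by Bcl6 as by this sum. Among the depleted libraries ChILP replicate 2 had the lowest Bcl6, but CLP replicate 2 had the lowest sum. The erythroid sum parted captured from depleted libraries as well (29039.1 RPKM or more against 8566.5 or less). The part of neutrophils, monocytes or erythroid cells in the Bcl6 level was not tested.

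Bach2 (NM_001109661), a repressor that holds lymphocytes back from terminal differentiation, stood at 1.37 and 1.01 RPKM in ChILP against 2.57 and 3.43 in CLP, without overlap. It stood at 0.0567 and 0.688 RPKM in PD-1+ against 0.419 and 0.84 in CCR6+ cells, with overlap, and PD-1+ replicate 1 had only 7 reads. Neither comparison passed (log2 fold changes -1.27, SE 0.95, and -0.76, SE 0.96, with adjusted p of 1.0 and 0.942 by edgeR). The second value was -3.58 without PD-1+ replicate 2 and 0.11 without PD-1+ replicate 1. Summed RPKM of 9 B lineage markers was 68.7 and 27.8 in ChILP against 196.6 and 252.2 in CLP, and 242.8 and 295.4 in PD-1+ against 346.6 and 337.5 in CCR6+ cells, with none at 0 in both libraries of a group. Bach2 and this sum were thus both lower in ChILP than in CLP. They parted in the captured libraries, each of which had less Bach2 than either CLP library. The B lineage sum of the PD-1+ libraries overlapped that of CLP, and both CCR6+ sums lay above both CLP sums. The part of B lineage cells in the Bach2 level was not tested.

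**Figure D5:**
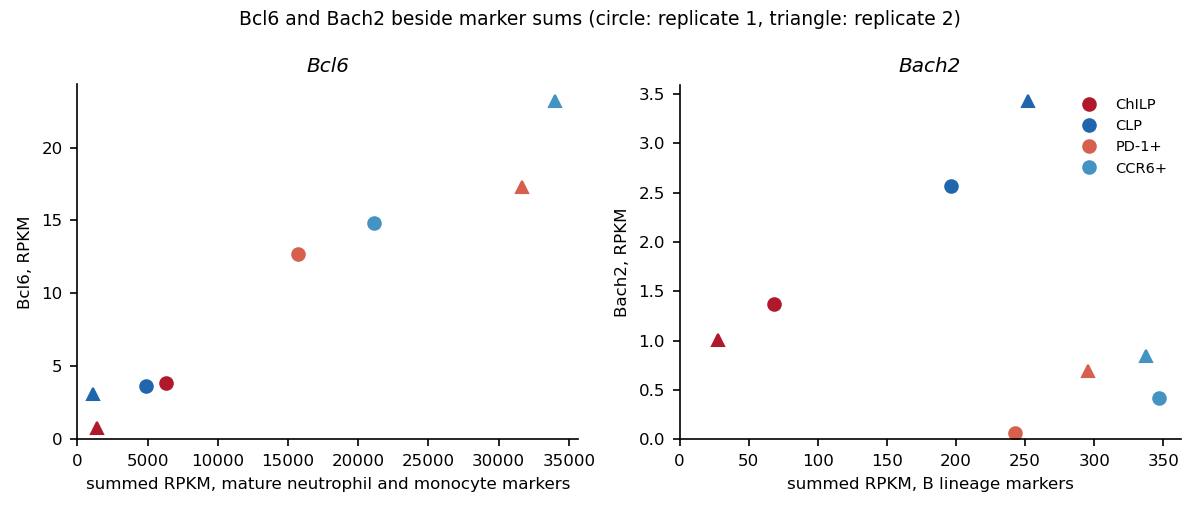
Bcl6 RPKM against the summed RPKM of mature neutrophil and monocyte markers (left) and Bach2 RPKM against that of B lineage markers (right), 1 point per library, with circles for replicate 1 and triangles for replicate 2. Bcl6 is between 12.7 and 23.2 RPKM where the marker sum is 15687.7 or more and at 3.87 RPKM or less elsewhere, while Bach2 is highest in CLP (2.57 and 3.43 RPKM).

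Promoter sequence was read for the members from RefSeq on GRCm38.p6, with 12 windows for 8 members. Zbtb16 was the member without a window, so its promoter was not searched for either motif below. Bcl6 and Bach2 are shown because BCL6 is known in human B cells to repress its own gene, and because these windows are the members' only ones holding the palindrome TTCNNNGAA, the core shared by STAT and BCL6 binding motifs, which reads the same on both strands. Each is the 250 bases before an annotated start, 5′ to 3′ on the gene's strand, with matches in capitals. They are the distal Bcl6 start (chr16:23988853-23989102, minus strand), the proximal Bcl6 start (chr16:23981284-23981533, minus strand) and the Bach2 start (chr4:32417185-32417434, plus strand).
Bcl6 distal: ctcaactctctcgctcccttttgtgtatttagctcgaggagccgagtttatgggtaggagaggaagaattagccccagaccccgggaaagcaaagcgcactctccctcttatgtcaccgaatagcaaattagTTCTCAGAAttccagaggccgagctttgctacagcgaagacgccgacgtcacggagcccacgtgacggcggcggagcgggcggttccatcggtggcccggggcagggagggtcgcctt
Bcl6 proximal: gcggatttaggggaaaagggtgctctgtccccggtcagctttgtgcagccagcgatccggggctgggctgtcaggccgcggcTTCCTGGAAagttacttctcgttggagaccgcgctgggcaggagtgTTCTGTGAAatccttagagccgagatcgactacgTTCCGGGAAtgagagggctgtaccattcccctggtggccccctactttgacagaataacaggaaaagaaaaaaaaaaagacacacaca
Bach2: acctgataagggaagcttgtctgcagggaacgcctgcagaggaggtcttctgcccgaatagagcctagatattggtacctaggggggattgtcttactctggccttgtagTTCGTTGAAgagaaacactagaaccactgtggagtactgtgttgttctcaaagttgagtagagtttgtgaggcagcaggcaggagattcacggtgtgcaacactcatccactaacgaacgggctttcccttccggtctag
The distal Bcl6 window held 1 match, the proximal window 3 and the Bach2 window 1. Of 32851 windows of this length, 7.02% held at least 1 match and 9 windows (0.0274%) at least 3. TGANTCA, a core bound by BACH and AP-1 factors, was in none of the 12 member windows and in 6.75% of all windows. A match describes the letters only, and the files do not say which Bcl6 start the reads came from.

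The 42 other BTB genes gave a family background, and 40 were tested. None was called in either comparison. At an unadjusted p under 0.05, 1 was higher and 0 lower in ChILP than in CLP, and 3 were higher and 0 lower in PD-1+ than in CCR6+ cells, beside 2.79% and 3.03% of all genes in the first comparison and 4.08% and 1.81% in the second. Patz1 (NM_001253691), a factor of thymocyte development, had the lowest of these p-values, at 38.9 and 14.0 RPKM in PD-1+ against 6.95 and 8.9 in CCR6+ cells (log2 fold change 1.65, SE 0.41, adjusted p = 0.69 by edgeR). Mynn stood at 12.1 and 7.33 against 3.96 and 5.45 RPKM, and Zbtb41 at 2.66 and 0.92 against 0.145 and 0.714 RPKM, in PD-1+ against CCR6+ cells. The list's median log2 fold changes were -0.0941 and 0.131, beside 0.0517 and 0.00578 for all genes. Zbtb37 was the gene higher in ChILP, at 0.959 and 0.701 RPKM against 0.0963 and 0 in CLP.

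Corepressors and ligase partners of BTB factors were read next. Of 20 genes tested, 0 were called, and 0 higher and 1 lower in ChILP than in CLP had an unadjusted p under 0.05, beside 2.79% and 3.03% of all genes. That gene was Mta3 (NM_054082), a subunit of a deacetylase complex that works with BCL6, at 29.6 and 28.0 RPKM in ChILP against 56.8 and 92.8 in CLP (log2 fold change -1.31, SE 0.29, adjusted p = 0.248 by edgeR). By that measure 2 were higher and 0 lower in PD-1+ than in CCR6+ cells, beside 4.08% and 1.81% of all genes. They were Chd4, a chromatin remodeller, at 18.1 and 16.0 against 10.9 and 10.9 RPKM, and Ncor1, at 12.5 and 9.52 against 6.64 and 8.26 RPKM. The medians of this list were 0.00762 and 0.267.

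Of 21 genes described as targets, partners or opponents of members, 20 were tested and 0 called. At an unadjusted p under 0.05, 5 were higher and 3 lower in ChILP than in CLP, beside 2.79% and 3.03% of all genes. The list was chosen with earlier results of these data known, so its counts are not independent evidence. Id2, among the 5, is also counted with the ILC precursor factors below. Notch1 (NM_008714), the receptor whose signalling LRF restrains, stood at 5.36 and 8.26 RPKM in ChILP against 29.1 and 40.0 in CLP (log2 fold change -2.28, SE 0.33, adjusted p = 0.0812 by edgeR). Id2 (NM_010496), an inhibitor of E proteins, stood at 227.7 and 326.6 RPKM in ChILP against 27.3 and 27.9 in CLP (log2 fold change 3.38, SE 0.48, adjusted p = 0.0812 by edgeR). Maf stood at 0.932 and 3.18 RPKM against 0.154 and 0.113, Cdkn1a at 38.2 and 35.5 against 44.1 and 94.5, and Myc, the partner of MIZ-1, at 187.6 and 176.6 against 234.4 and 308.6, in ChILP against CLP. Bcl2 (NM_009741), a survival factor that depends on MIZ-1 in early B cells, stood at 27.7 and 46.2 RPKM in ChILP against 9.74 and 9.74 in CLP, and at 67.6 and 23.7 in PD-1+ against 13.5 and 8.26 in CCR6+ cells. Socs1, an inhibitor of cytokine signalling that MIZ-1 represses, stood at 67.6 and 96.6 RPKM in ChILP against 15.6 and 33.0 in CLP, and at 145.1 and 38.2 in PD-1+ against 26.2 and 23.5 in CCR6+ cells. Neither gene passed over all genes (adjusted p of 0.288 to 0.757 by edgeR).

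In PD-1+ against CCR6+ cells 5 genes of that list were higher and 2 lower at an unadjusted p under 0.05, beside 4.08% and 1.81% of all genes. Icos (NM_017480), a costimulatory receptor, stood at 40.0 and 10.1 RPKM in PD-1+ against 2.3 and 2.47 in CCR6+ cells (log2 fold change 3.29, SE 0.92, adjusted p = 0.697 by edgeR). Hes1, a Notch target, stood at 74.7 and 18.7 against 1.1 and 5.39 RPKM. Cd4, which ThPOK keeps active in T cells and which LTi cells also carry, stood at 6.82 and 12.7 RPKM in PD-1+ against 26.2 and 13.9 in CCR6+ cells. Cd44, an adhesion receptor, stood at 23.4 and 27.9 RPKM against 34.9 and 33.4. Prdm1, which encodes Blimp-1 and is repressed by BCL6 and BACH2, stayed low, at 0 and 1.25 RPKM in ChILP against 0.145 and 0.757 in CLP and at 0.95 and 2.18 in PD-1+ against 0.0364 and 1.61 in CCR6+ cells. It was named for its role after its values were seen. The medians of this list were 0.511 and 0.156.

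The 12 ILC precursor factors were all higher in ChILP than in CLP without overlap between libraries and 9 were so in PD-1+ against CCR6+ cells, beside the 17.0% and 19.0% of all genes, with medians of 3.15 and 2.45. Of these, 10 and 8 were higher at an unadjusted p under 0.05, beside 2.79% and 4.08% of all genes, and 0 were called over all genes. Their choice rests on their known role in ChILP and earlier results of these data were known, so the counts are not independent evidence of direction. Gata3 (NM_008091) stood at 51.1 and 117.2 RPKM in ChILP against 1.86 and 2.74 in CLP, and at 316.0 and 62.8 in PD-1+ against 10.8 and 12.0 in CCR6+ cells. Tcf7 stood at 58.5 and 102.1 RPKM and Bcl11b at 5.28 and 12.8 RPKM in ChILP, against 0.546 and 1.11 and against 0.0354 and 0 in CLP. Bcl11b in PD-1+ against CCR6+ cells stood at 21.7 and 5.17 against 0.791 and 0.546 RPKM, Rora at 306.8 and 73.7 against 24.6 and 10.7, and Tox2 at 201.0 and 39.2 against 8.94 and 4.06. Zbtb16 per Gata3 was 0.274 and 0.267 in ChILP against 1.23 and 0.312 in CLP, and 0.146 and 0.188 in PD-1+ against 0.0676 and 0.103 in CCR6+ cells.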

How the data were processed

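Expression was measured in 8 Smart-seq2 libraries of 50 bp reads, 2 per group. The authors deposited, per transcript, whole-number read counts and RPKM values. Within a library the deposited RPKM divides each count by transcript length and by a single total. Bowtie2 2.2.2, CASAVA 1.8.4 and the build mm9 appear in the submitters' processing notes without a role. The counter and its strand setting are not given in the sources used for this work, so reads of overlapping or antisense genes cannot be told apart.

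Of 29257 transcript rows, the transcript with the largest mean count stood for each of 22878 symbols. The test was edgeR's two-sided quasi-likelihood F test (edgeR 4.0.16, R 4.3.3), robust, after TMM scaling and filterByExpr at a count of at least 10. A single fit held all 8 libraries and covered 13619 genes with Benjamini-Hochberg adjustment. The common biological coefficient of variation was 0.526. The code was tested on simulated data. The members, gene lists and naming rule (all members, then up to 4 list genes per direction with the lowest unadjusted p under 0.05, then the 6 genes most like Zbtb16) were chosen with earlier results of these data known. Alternatives were DESeq2 1.42.0 with its size factors or Wald test, limma 3.58.1 on log2(RPKM + 1) and log2(RPKM + 0.1), other filters, samples, transcripts and a replicate block, and leaving out each library. Floors cover counting error only. Promoters come from RefSeq on GRCm38.p6, which is not the authors' build, so the printed coordinates are those of these windows only.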

Additional observations from a re-analysis of the deposited data

How the results depend on the processing

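Zbtb16 was higher in ChILP than in CLP and in PD-1+ than in CCR6+ cells under every alternative tried, with log2 fold changes of 3.16 to 4.85 and 3.56 to 5.77. It passed the threshold with the DESeq2 Wald test (3.85 and 4.74) and without PD-1+ replicate 2, and leaving out 1 library gave 3.19 to 4.85 and 3.56 to 5.41. In ChILP against CLP the number of genes called, 3, was 0 with DESeq2 size factors, 0 with summed transcripts, 263 with the DESeq2 Wald test, 55 and 46 with limma on log2(RPKM + 1) and log2(RPKM + 0.1), 63 with no filter and 59 with only the 4 libraries compared, and 0 to 24 leaving out 1 library. In PD-1+ against CCR6+ the number called, 0, was 131 with the DESeq2 Wald test, 2 with limma on log2(RPKM + 1) and 0 to 36 leaving out 1 library. It was 5 without both number 2 libraries, an alternative chosen after seeing the data. The causes were not tested.

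The log2 fold changes of some members turned sign with 1 library left out. In ChILP against CLP the ranges were -0.04 to 0.29 for Zbtb7a, -0.67 to 0.04 for Zbtb17, -0.61 to 0.11 for Zbtb20 and -2.15 to 0.25 for Bcl6. In PD-1+ against CCR6+ they were -0.20 to 0.25 for Zbtb7a, -0.72 to 0.20 for Zbtb7b, -0.37 to 0.36 for Zbtb17 and -3.58 to 0.11 for Bach2. Without both number 2 libraries Zbtb7a stood at -0.003 and Zbtb1 at -0.06. No alternatives are given for Zbtb32 in ChILP against CLP, because a value fitted against no read depends on the prior count.

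With the replicate number as a block, 0 genes were called in either comparison, and Zbtb16 had log2 fold changes of 4.05 and 4.62 (edgeR adjusted p = 0.257 and 0.789). Deviations of same-numbered libraries correlated at 0.148 for ChILP and CLP and at 0.124 for PD-1+ and CCR6+, and with only 2 numbers this does not establish pairing.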

Other observations

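The following BTB genes, chosen after their values were seen, are given as values. Bach1 (NM_007520), the paralogue of Bach2, stood at 2.31 and 3.11 RPKM in PD-1+ against 5.83 and 2.18 RPKM in CCR6+ cells, which overlapped, and at 1.82 and 0.863 RPKM in ChILP against 2.22 and 2.11 RPKM in CLP. Zbtb24 stood at 9.38 and 6.93 RPKM in PD-1+ against 13.6 and 8.89 RPKM in CCR6+ cells and at 9.15 and 6.8 RPKM in ChILP against 8.71 and 16.0 RPKM in CLP, with overlap in both.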
